A study of Ovis aries with 8 samples.

Results

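Astrocyte genes were followed in RNA sequencing of the mediobasal hypothalamus, the tissue block at the base of the brain that holds the arcuate nucleus. The set held 30 genes chosen by name as astrocyte markers or astrocyte-enriched genes, and 28 of them had a row under their own symbol among the 33609 genes listed. CLU, which encodes the lipid carrier clusterin, had no row under that symbol and was not analysed here. SLC4A4, a bicarbonate transporter, was matched through its gene ID to a row with a LOC name and is described apart. All 28 passed the low-count filter, as did 18193 genes in all.

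Adult Ile-de-France ewes were either food-restricted or fed ad lib, which the sample titles call well fed. Each group had 60 ewes, 30 in each of 2 years. RNA of 15 ewes was mixed into each sequencing pool, giving 4 food-restricted and 4 well-fed pools. Every n below counts pools, so the spread is that between mixes of ewes, and whether a pool holds ewes of 1 or both years is not given. Sequencing depth ran from 41261774 to 42964514 counts per food-restricted pool and from 36192025 to 48125991 per well-fed pool. A value given as ± is the mean and SD of the 4 pools of a group (n = 4), with the food-restricted group first where a pair is given in turn.

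Astrocytes take up glutamate and GABA released by neurons, buffer water and ions at their endfeet on blood vessels, pass small molecules to each other through gap junctions, and secrete the lipoproteins that carry lipid between brain cells. In the arcuate nucleus they surround the neurons that sense nutrients and are known for structural and metabolic responses to diet. Their characteristic filament protein is GFAP. Tanycytes, the radial glia that line the third ventricle, share many of these genes with astrocytes. ID proteins bind basic helix-loop-helix transcription factors and keep them from DNA, and their genes are classical targets of bone morphogenetic protein (BMP) signalling.

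None of the 28 genes passed the test between food-restricted and well-fed pools (edgeR quasi-likelihood, adjusted p = 1 for each), against 0.0055% of all tested genes. At an unadjusted edgeR p under 0.05, 3 of the 28 were higher in the food-restricted pools and 0 were lower, against 0.671% and 1.03% of all tested genes (1.7% in either direction). DESeq2 called 0 of the 28 against 0.0055% of all genes higher and 0.0165% lower, and limma voom called 0 against 0.0055% higher and 0% lower. With 1 surrogate variable edgeR also called 0 of the 28, against 0.022% higher and 0.0275% lower. The 3 genes were ID2, PLA2G7 and GJB6. That count was 1 without food-restricted pool 1 and 1 without well-fed pool 2. In the fit, 16 of the 28 were higher and 12 lower with food restriction, against 52.9% and 47.1% of all tested genes. Their median log2 fold change (food-restricted minus well fed) was 0.06, against 0.01 over all tested genes.

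Levels are in CPM, the counts of a gene relative to the TMM-scaled size of its library. The 28 genes together made up 20420 ± 1460 and 20267 ± 1190 CPM in turn. Without GFAP, SPARCL1, APOE and S100B, which hold most of that sum, the sums were 6895 ± 124 and 6820 ± 301 CPM. Both sums overlapped between the groups. In tissue RNA of this kind, fewer astrocytes and less RNA per astrocyte cannot be told apart.

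**Figure D1:**
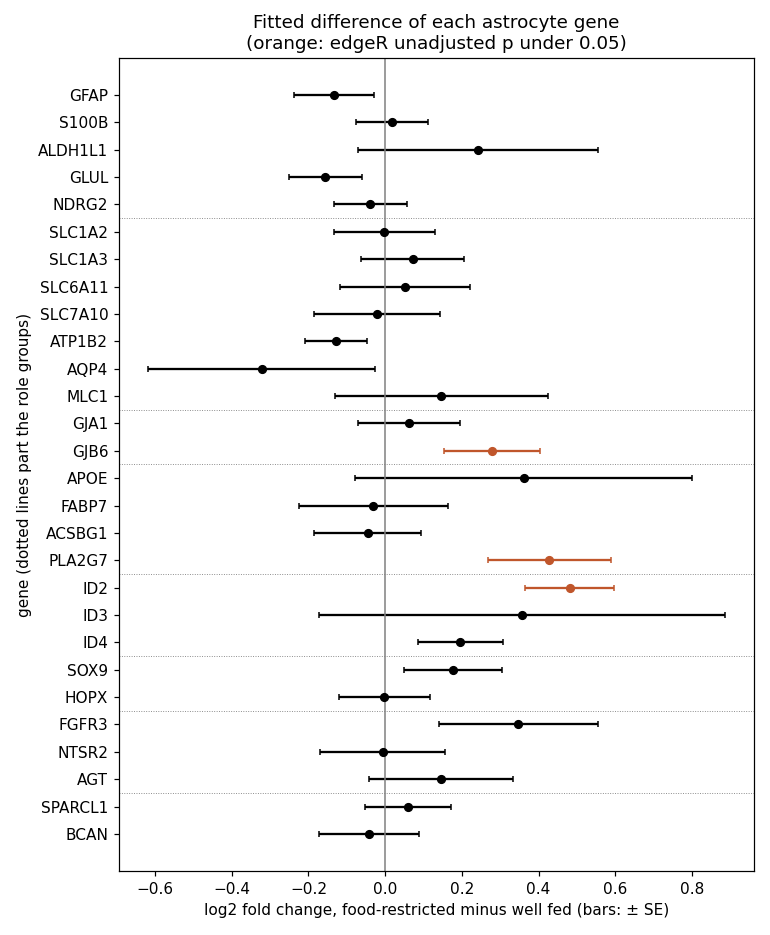
The fitted log2 fold change (food-restricted minus well fed) of each of the 28 astrocyte genes is shown with its SE as a bar, in role groups from filament and enzymes at the top to matrix proteins at the bottom. GJB6, PLA2G7 and ID2, in orange, lie furthest above 0 relative to their SE, while APOE and ID3 have the widest bars, which reach below 0.

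Of the marker genes most used to recognise astrocytes, GFAP was lower on average in the food-restricted pools, with overlap. S100B lay close in both groups, while ALDH1L1 varied widely between pools. GFAP, the intermediate filament protein, was at 6004, 7194, 5197 and 5845 CPM in food-restricted pools 1 to 4 and at 6686, 6255, 7303 and 6362 CPM in well-fed pools 1 to 4. Food-restricted pools 1, 3 and 4 lay below every well-fed pool, and pool 2 lay within the well-fed range. The log2 fold change of GFAP was -0.13 (SE 0.10), and it lay between -0.21 and -0.07 over the alternatives. S100B, a calcium-binding protein that oligodendrocytes also make, was at 1828 ± 111 and 1806 ± 183 CPM in turn, with a log2 fold change of 0.02 (SE 0.09). ALDH1L1, a folate enzyme used to mark astrocytes as a whole, varied 3.05-fold between pools, from 23.1 CPM in well-fed pool 2 to 70.3 CPM in food-restricted pool 2. Its log2 fold change of 0.24 (SE 0.31) was -0.08 without food-restricted pool 2.

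GLUL, the glutamine synthetase that turns recaptured glutamate into glutamine, was at 885, 793, 997 and 893 CPM in the food-restricted pools and at 1059, 1007, 997 and 912 CPM in the well-fed pools. The food-restricted pools lay lower on average, with food-restricted pool 3 reaching the well-fed range, and the log2 fold change was -0.16 (SE 0.10). NDRG2, an astrocyte-enriched member of the NDRG family, was at 936 ± 47.5 and 962 ± 97.0 CPM in turn. The median log2 fold change of these 5 filament, calcium-binding and enzyme genes was -0.04, with 2 higher and 3 lower.

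The transporter group gave 3 genes higher and 4 lower among 7 tested, with a median log2 fold change of 0.00. SLC1A2, which encodes the glutamate transporter GLT-1, was at 334, 256, 371 and 306 CPM in the food-restricted pools and at 364, 326, 306 and 273 CPM in the well-fed pools. The ranges of the groups covered each other, and the means were both 317 CPM. SLC1A3, which encodes the glutamate transporter GLAST that tanycytes also carry, was at 1370, 1269, 1750 and 1469 CPM against 1685, 1451, 1203 and 1236 CPM. Its highest pools were food-restricted 3 and well-fed 1, and its log2 fold change was 0.07 (SE 0.13).

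SLC6A11, the GABA transporter GAT-3, was at 216 ± 37.9 and 208 ± 42.0 CPM in turn, and SLC7A10, an exchanger of small neutral amino acids such as D-serine, was at 20.9 ± 4.23 and 21.2 ± 1.57 CPM in turn. ATP1B2, a subunit of the sodium pump, had the narrowest spread of the 28, 1.16-fold between its lowest and highest pool. It was at 615, 591, 585 and 574 CPM in the food-restricted pools and at 657, 602, 665 and 659 CPM in the well-fed pools. The food-restricted pools were the lower ones save that pool 1 lay above well-fed pool 2, with a log2 fold change of -0.13 (SE 0.08).

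AQP4, the water channel of astrocyte endfeet, had the largest fitted decrease of the 28 and one of the widest spreads. It was at 15.7, 24.2, 15.8 and 21.1 CPM in the food-restricted pools and at 30.2, 16.6, 35.7 and 13.5 CPM in the well-fed pools. Well-fed pools gave both the lowest and the highest value, and the log2 fold change was -0.32 (SE 0.30). It ranged from -0.52 without well-fed pool 4 to -0.05 without well-fed pool 3. MLC1, a membrane protein of astrocyte junctions around vessels, was at 195 ± 66.5 and 176 ± 58.1 CPM in turn. The LOC row with the gene ID of SLC4A4 held between 8 and 135 counts per pool, or 0.187 to 2.81 CPM. Its groups overlapped, its log2 fold change being -1.50 (SE 0.73), and at these counts it gives no usable account of that transporter.

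Both gap junction genes were higher in the fit. GJA1, which encodes connexin 43, was at 256, 230, 340 and 265 CPM in the food-restricted pools and at 268, 294, 248 and 235 CPM in the well-fed pools. These ranges overlapped throughout, with a log2 fold change of 0.06 (SE 0.13). GJB6, which encodes connexin 30, was at 39.2, 32.8, 36.0 and 28.4 CPM in the food-restricted pools and at 27.8, 28.7, 27.8 and 28.3 CPM in the well-fed pools. The well-fed pools were within 1 CPM of each other, and 3 of the 4 food-restricted pools lay above all of them. The log2 fold change of GJB6 was 0.28 (SE 0.13) or 1.21-fold, with an unadjusted edgeR p of 0.0488 and an adjusted p of 1. Whether the 2 connexins differ in their response was not tested.

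Of the lipid group, 2 of 4 tested genes were higher and 2 lower, with a median log2 fold change of 0.16. APOE, the main lipoprotein of the brain and also made by microglia, was at 2815, 3397, 1152 and 1911 CPM in the food-restricted pools. In the well-fed pools it was at 905, 817, 2712 and 2786 CPM. Each group held both high and low pools, a 4.16-fold span in all, so that the log2 fold change of 0.36 had an SE of 0.44. It stayed above 0 when any pool was left out (0.12 to 0.65).

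PLA2G7, a secreted phospholipase that cleaves platelet-activating factor and oxidised lipids, was at 22.3, 15.6, 21.8 and 16.8 CPM in the food-restricted pools and at 14.3, 13.4, 13.1 and 16.1 CPM in the well-fed pools. The groups overlapped only in that well-fed pool 4 lay above food-restricted pool 2. Its log2 fold change was 0.43 (SE 0.16) or 1.35-fold, with an unadjusted edgeR p of 0.0226 and an adjusted p of 1. FABP7, a fatty acid binding protein of radial glia and astrocytes, was at 14.1 ± 3.15 and 14.4 ± 2.47 CPM in turn, and ACSBG1, a long-chain acyl-CoA synthetase, was at 42.9 ± 5.98 and 44.3 ± 5.84 CPM in turn.

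**Figure D2:**
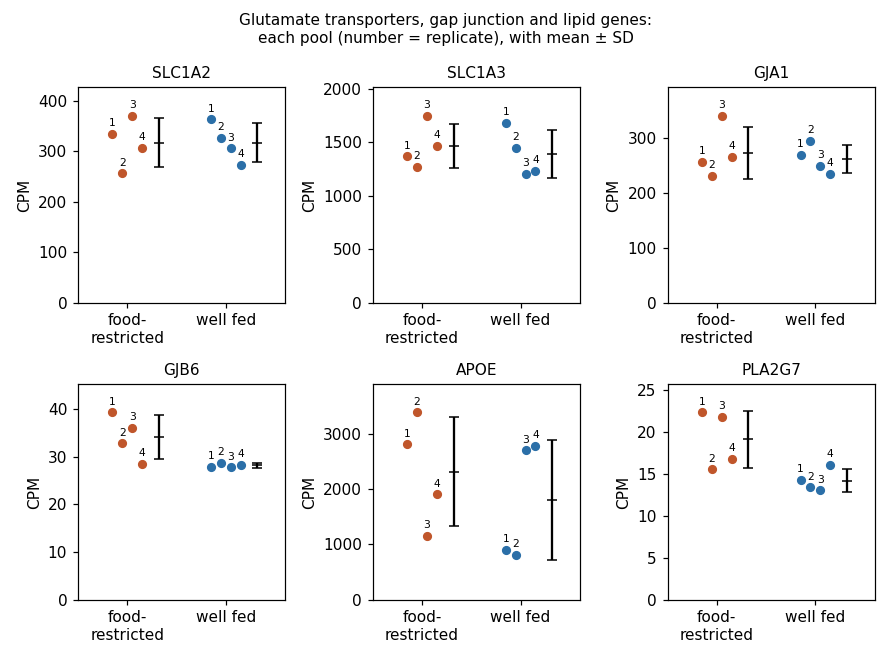
Each panel plots 1 gene in CPM on an axis that starts at 0, with a point per pool (the number is the replicate) and the mean ± SD beside each group. The well-fed pools of GJB6 lie together at 27.8 to 28.7 CPM, and APOE has high and low pools in each group.

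The 3 ID genes were all higher in the fit, with a median log2 fold change of 0.36. ID2 was the 1 gene of the 28 whose groups did not overlap, where 0.495% of all tested genes were higher without overlap and 1.1% lower (1.6% in all). It was at 45.9, 42.8, 38.5 and 37.8 CPM in the food-restricted pools and at 26.7, 29.8, 30.9 and 30.9 CPM in the well-fed pools. Every food-restricted pool thus lay above every well-fed pool, at 41.3 ± 3.80 and 29.6 ± 1.99 CPM in turn. The log2 fold change was 0.48 (SE 0.12) or 1.40-fold. ID2 did not pass over all genes (edgeR unadjusted p = 0.00175, adjusted p = 1), and its adjusted p ranged from 0.188 to 1 over the alternatives. Its log2 fold change stayed between 0.43 and 0.53 when each pool was left out in turn.

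ID4, which acts in neural progenitors and astrocytes, was at 104, 96.5, 114 and 86.8 CPM in the food-restricted pools and at 82.0, 86.7, 90.4 and 91.7 CPM in the well-fed pools. The food-restricted pools were higher save for pool 4, with a log2 fold change of 0.20 (SE 0.11). ID3 was at 82.9, 93.6, 28.7 and 43.9 CPM against 16.9, 20.9, 82.2 and 74.5 CPM, the widest span of the 28 at 5.54-fold. High and low pools stood in both groups, as for APOE, and its log2 fold change of 0.36 had an SE of 0.53 and was 0.07 without well-fed pool 1. ID1, the remaining member of the family and no member of the set of 30, had the same high pools, at 103, 78.6, 48.7 and 48.3 CPM against 22.3, 37.4, 71.1 and 77.0 CPM (log2 fold change 0.42, SE 0.38).

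**Figure D3:**
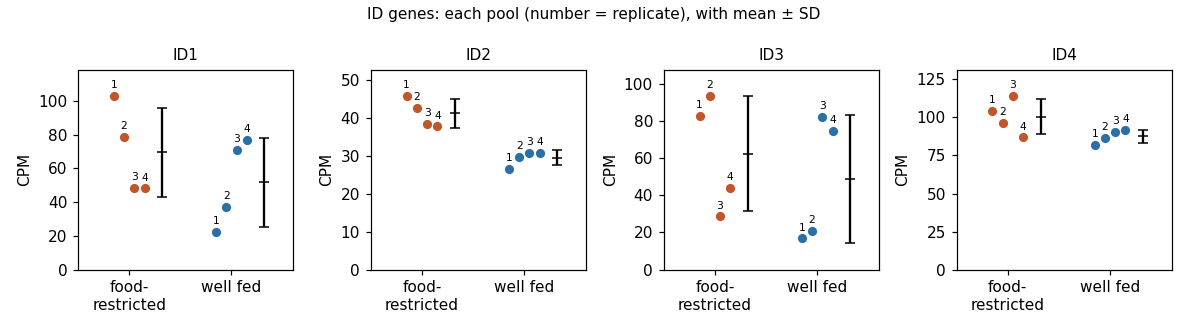
Each panel plots 1 ID gene in CPM from 0, with a point per pool (the number is the replicate) and the mean ± SD beside each group. The groups of ID2 lie apart, while ID1 and ID3 each have high and low pools within both groups.

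ID1 and ID3 are also expressed by endothelial cells. The 15 endothelial markers had 8 higher and 7 lower in the fit, and their summed level was 417 to 487 CPM in food-restricted pools and 407 to 461 CPM in well-fed pools. PLA2G7 is also made by macrophages. The 14 tested microglia and macrophage markers had 5 higher and 9 lower, with a summed level of 644 to 715 CPM against 621 to 788 CPM. The part of these cells in the values of ID2, ID3 and PLA2G7 was not tested.

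Among transcription regulators, SOX9, a glial fate factor that ependymal cells and tanycytes also express, was at 133 ± 19.7 and 118 ± 11.5 CPM in turn, with a log2 fold change of 0.18 (SE 0.13). HOPX, a homeodomain protein without DNA binding, was at 138 ± 19.6 and 138 ± 8.11 CPM in turn. Food-restricted pool 3 was the highest for both.

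Among receptors and secreted precursors, FGFR3, a fibroblast growth factor receptor of astrocytes, was at 115, 150, 88.1 and 87.4 CPM in the food-restricted pools and at 70.4, 71.4, 113 and 91.6 CPM in the well-fed pools. The lowest values were those of well-fed pools 1 and 2, and the log2 fold change was 0.35 (SE 0.21). It ranged from 0.18 without food-restricted pool 2 to 0.51 without well-fed pool 3. AGT encodes angiotensinogen, the precursor of angiotensin, which astrocytes supply in the brain. It was at 764, 956, 606 and 728 CPM against 555, 537, 907 and 763 CPM, for a log2 fold change of 0.15 (SE 0.19) that ranged from 0.03 without food-restricted pool 2 to 0.32 without well-fed pool 3. NTSR2, a neurotensin receptor enriched in astrocytes, was at 84.3 ± 14.9 and 84.7 ± 14.9 CPM in turn. The matrix proteins SPARCL1 (hevin, which promotes synapse formation) and BCAN (brevican, also made by oligodendrocyte progenitors) were at 3318 ± 327 and 3184 ± 424 CPM in turn and at 384 ± 70.8 and 395 ± 25.0 CPM in turn.

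Several astrocyte genes had high and low pools within each feeding group. The first principal component of log2 CPM, computed over the 18164 tested genes outside the set, held 34.7% of the variance. It put food-restricted pools 1 and 2 and well-fed pools 3 and 4 above 0, and food-restricted pools 3 and 4 and well-fed pools 1 and 2 below 0, with food-restricted pool 4 nearest to 0. For 6 of the 28 genes (APOE, ID3, MLC1, FGFR3, NTSR2 and AGT) all 4 pools above 0 had higher levels than all 4 pools below 0. For 3 (SLC1A3, GJA1 and SPARCL1) all 4 were lower. Of all tested genes, 14.2% were higher and 8.93% lower in this way (23.1% in all), against these 9 of 28.

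Both directions occurred among standard astrocyte genes. APOE was at 2712 to 3397 CPM in the 4 pools where GJA1 was at 230 to 256 CPM, and at 817 to 1911 CPM in the 4 where GJA1 was at 265 to 340 CPM. MLC1 went with APOE, at 227 and 269 CPM in food-restricted pools 1 and 2 against 118 and 164 CPM in pools 3 and 4. In the well-fed pools MLC1 was at 124, 128, 235 and 216 CPM. Of 15 tested endothelial markers, 2 were higher (CLDN5 and ESAM) and 1 lower (FLT1) in all 4 pools above 0 and 12 overlapped, against 23.1% of all tested genes apart. These 3 were chosen for naming with their values in view. The labels give no batch for a pool, and what sets these pools apart was not tested.

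**Figure D4:**
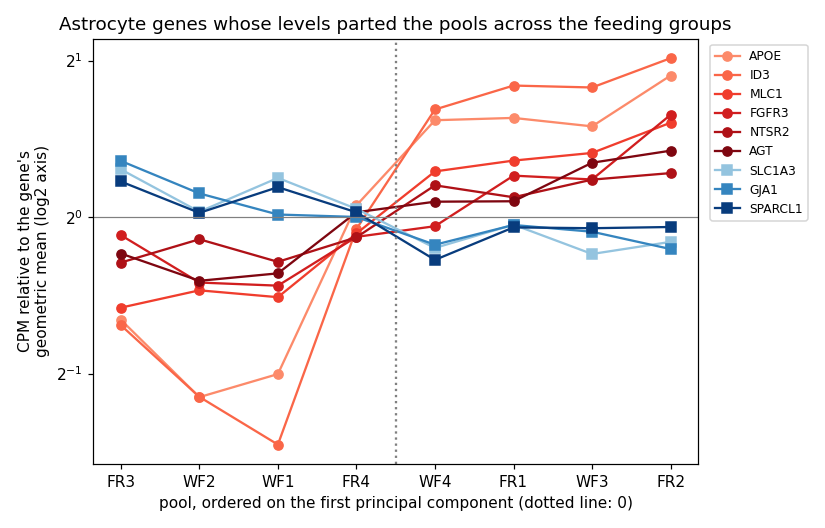
The CPM of 9 astrocyte genes, each relative to its own geometric mean over the 8 pools (log2 axis), is drawn with the pools ordered by their place on the first principal component. APOE, ID3, MLC1, FGFR3, NTSR2 and AGT (red circles) are higher to the right of the dotted line and SLC1A3, GJA1 and SPARCL1 (blue squares) lower, with food-restricted (FR) and well-fed (WF) pools on each side.

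Within these sides, each with 2 pools per feeding group, the food-restricted to well-fed ratio of ID2 was 1.44 above 0 and 1.35 below 0. It was 1.30 and 1.39 for PLA2G7, 1.29 and 1.14 for GJB6, and 1.30 and 1.24 for FGFR3. For APOE the ratio was 1.13 above 0 and 1.78 below 0, and for ID3 it was 1.13 and 1.92. ALDH1L1, SLC1A3, MLC1, GJA1, ID4, SOX9, AGT and SPARCL1 also had ratios above 1 on both sides. Ratios under 1 on both sides were those of AQP4 (0.81 and 0.79), GLUL (0.88 and 0.92), ATP1B2 (0.91 and 0.92) and GFAP (0.97 and 0.85). With the side as a block in the fit, the log2 fold changes were 0.50 for APOE, 0.55 for ID3 and 0.34 for FGFR3. In that fit these 3 joined ID2, PLA2G7 and GJB6 at an unadjusted edgeR p under 0.05, which made 6 of the 28, all higher. The same 6 stood there with 1 surrogate variable. Both fits take their covariate from these same counts, and the side block was chosen after seeing the data. The surrogate variable was below 0 in every pool above 0 on the component and above 0 in the others. These fits are thus not independent. The share of all tested genes at that unadjusted p in them is not given here. APOE, ID3 and FGFR3 had an adjusted edgeR p of 0.991 with the side as a block. None of the 28 passed in that fit (lowest edgeR adjusted p = 0.351, for ID2), which called 0.011% of all genes higher and 0.022% lower.

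**Figure D5:**
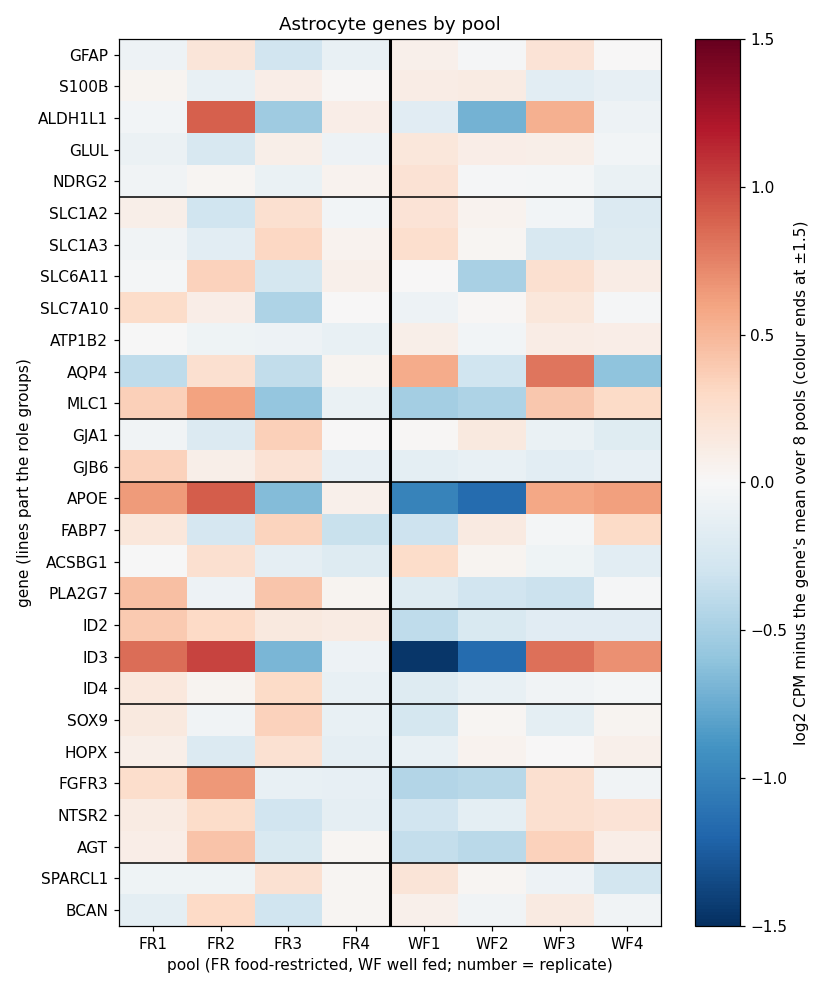
Rows are the 28 astrocyte genes in role groups and columns the 8 pools (FR food-restricted, WF well fed), with colour giving log2 CPM minus the mean of the gene. ID2 is red in all FR pools and blue in all WF pools, while APOE and ID3 are red in FR1, FR2, WF3 and WF4 and blue in FR3, WF1 and WF2.

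The related lists held 0 genes past the edgeR threshold. Of 38 other tested astrocyte genes, 20 were higher and 18 lower (median log2 fold change 0.01). TRIL, an accessory protein of Toll-like receptors in astrocytes, was at 66.0, 71.9, 73.5 and 65.3 CPM in the food-restricted pools and at 56.9, 53.5, 59.8 and 45.6 CPM in the well-fed pools. TRIL was the 1 of the 38 whose groups did not overlap, where 0.495% of all tested genes were higher without overlap and 1.1% lower. It did not pass over all genes (log2 fold change 0.36, SE 0.12, edgeR adjusted p = 1). RFX4, a glial transcription factor, was at 63.2 ± 9.62 and 77.0 ± 5.42 CPM in turn, a log2 fold change of -0.28 (SE 0.13).

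Of 27 tested genes known from reactive astrocytes, 8 were higher and 19 lower (median -0.08). FKBP5, a glucocorticoid-induced co-chaperone placed in this list, stood lowest in p of these genes, at a log2 fold change of -0.65 (SE 0.13), and passed in the fits with the side as a block or 1 surrogate variable. Its values were 58.6, 53.2, 73.8 and 72.1 CPM in the food-restricted pools and 92.8, 112, 99.7 and 100.2 CPM in the well-fed pools. FKBP5 was the 1 of the 27 whose groups did not overlap, where 1.1% of all tested genes were lower without overlap. VIM, the filament protein partnered with GFAP, was at 0.02 (SE 0.11), NES (nestin) at -0.02 (SE 0.14) and STAT3, the transcription factor of the reactive response, at -0.25 (SE 0.16). LCN2, a marker induced in reactive astrocytes, had too few counts to be tested, at 0.12 CPM or less in every pool. VIM, NES and LCN2 were named after their values were seen.

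Of 12 other connexin, pannexin and junction genes, 5 were higher and 7 lower (median -0.04), with the vascular connexin GJA5 at -0.47 (SE 0.19). In the BMP and SMAD pathway 17 of 27 were higher and 10 lower (median 0.04), with BMP5, a ligand, at 0.46 (SE 0.25) and BMP2, another ligand, at -0.18 (SE 0.19). Lipoprotein transport had 12 higher and 9 lower of 21 (median 0.03), with APOD at -0.16 (SE 0.11). The glutamate and glutamine cycle outside the set had 12 higher and 9 lower of 21 (median 0.02), with the neuronal glutamate transporter SLC1A1 at 0.17 (SE 0.13). The angiotensin pathway had 8 higher and 7 lower of 15 (median 0.06). Water and ion genes of the endfeet had 8 higher and 13 lower of 21 (median -0.03).

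Marker lists of the neighbouring cells overlapped between the groups in summed level, except that of red blood cells. Neuronal markers summed to 8282 to 8806 CPM in food-restricted pools and 8272 to 8613 CPM in well-fed pools. Tanycyte markers summed to 1567 to 1690 CPM against 1536 to 1788 CPM, a sum in which VIM alone held 755 to 1016 CPM. The tanycyte markers LHX2 and GPR50 were at 0.351 CPM or less in every pool. DIO2, the deiodinase of tanycytes that makes active thyroid hormone, was at 57.0, 53.4, 82.6 and 55.2 CPM in the food-restricted pools and at 101, 111, 76.2 and 85.6 CPM in the well-fed pools. These overlapped in food-restricted pool 3 alone, and the log2 fold change of DIO2 was -0.59 (SE 0.17, edgeR adjusted p = 1), past the threshold with 1 surrogate variable. Pericyte, smooth muscle and meninges markers summed to 1583 to 2084 CPM against 1520 to 2132 CPM. Of the 16 tested, 6 were higher in the fit and 10 lower. Without overlap, 3 were lower in the food-restricted pools, against 1.1% of all tested genes. They were the collagen gene COL3A1 (log2 fold change -0.40, SE 0.14), KCNJ8 (-0.35, SE 0.16) and ABCC9 (-0.70, SE 0.33), the last 2 encoding parts of a potassium channel. MRC1, a macrophage receptor, was the 1 of 14 microglia and macrophage markers lower without overlap, at 1.29 to 1.68 CPM against 2.29 to 3.07 CPM. The part of any of these cells in the values of the astrocyte genes was not tested. Mature oligodendrocyte markers summed to 4728 to 6295 CPM against 4601 to 6252 CPM, with 16 of 18 tested genes higher in the fit and 0 past the threshold. Red blood cell markers, of which 2 were tested, summed to 0.630 to 1.45 CPM against 1.69 to 4.13 CPM. The 2 went opposite ways in the fit, all at low levels. HBB was at 0 to 0.796 CPM against 0.910 to 3.73 CPM (log2 fold change -2.01, SE 0.82). AHSP overlapped between the groups (log2 fold change 0.30, SE 0.58).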

How the data were processed

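The authors deposited raw counts of reads for each gene, with a column for each pool, per the file headers. Libraries were stranded mRNA (TruSeq), per the labels' protocols. The submitters' processing notes name TopHat2 2.1.1, Bowtie2 2.3.5.1 and featureCounts 2.0.0. Not given in the sources used here are genome build, annotation and the strand setting of the counting, so genes that overlap others are uncertain and no coordinates are printed. Columns RES and AL were read as food-restricted and ad lib (well fed).

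Counts were filtered with filterByExpr (minimum count 10, minimum total 15), scaled by TMM and tested with the quasi-likelihood F test of edgeR 4.0.16 in R 4.3.3, with no covariate. P-values were adjusted by Benjamini-Hochberg over all 18193 genes, with a threshold of 0.05. A log2 fold change above 0 means higher in food-restricted pools. Its SE was obtained as its size over the root of the F statistic. Log2 CPM for the principal component had a prior count of 2. The common biological coefficient of variation was 28.3%. The fit was tested on simulated counts with known changes. There it called 9% of genes changed 1.5-fold, 50% of those changed 2-fold and 73% of those changed 3-fold. Changes of the size fitted for the astrocyte genes would thus mostly go uncalled. Gene IDs were matched to symbols of the RefSeq table of ARS-UI_Ramb_v3.0 (83.6% of IDs found), for names only. No sequences were used here.

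Alternatives were 3 other scalings, 2 other filters, DESeq2 1.42.0, limma 3.58.1 (voom), the replicate number as a block, 1 surrogate variable (sva 3.50.0), each pool left out in turn and, chosen after seeing the data, a block for the side of a pool on the first principal component. The surrogate variable was first estimated from plain CPM and then, after that result had been seen, from TMM-scaled counts. Both are kept, the CPM version as an alternative added after seeing the data. The members, lists and tests were chosen with earlier results of these data known. Named from the other lists were up to 3 genes with the smallest p in each. Some of these are not reported here. Whether pools share ewes is not stated, so p-values measure the spread between these pools, which may be technical. No pair of pools in a group agreed within sampling noise (chi-square over degrees of freedom at least 25.1).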

Additional observations from a re-analysis of the deposited data

Results flagged for a closer look

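ATP1B2 was flagged for well-fed pool 2, at 602 CPM, which stood apart from the other 3 well-fed pools at 657 to 665 CPM. That pool lay within the range of the food-restricted pools. It was the 1 flag among 56 groups of 4 pools examined, where chance flags about 1 in 20.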

How the results depend on the processing

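None of the 28 astrocyte genes passed in any of the 19 alternatives. Their median log2 fold change lay between 0.03 and 0.08. The number higher lay between 15 and 21, and the number lower between 7 (without food-restricted pool 4) and 13 when a pool was left out. Of the 28, 13 kept their sign in every alternative, ID2, PLA2G7 and GJB6 among them, and 15 changed it in at least 1. The number of the 28 with an unadjusted p under 0.05 was 3, 1 with the replicate block, 6 with 1 surrogate variable or the side as a block, 7 with the surrogate variable from plain CPM, and 1 to 4 when a pool was left out. For the alternatives, the share of all tested genes at that p is not given here. ID2 had an unadjusted p under 0.05 in all 20 fits, PLA2G7 in 15 and GJB6 in 9. Over the whole table, 1 gene passed (none of the 28). The count was 4 with DESeq2, 0 with the replicate block, 9 with 1 surrogate variable, 7 with that variable estimated from plain CPM, 6 with a block for the side of the pools on the first component, and 0 to 0 when a pool was left out. Of the other lists, 2 genes passed with 1 surrogate variable (FKBP5 and DIO2), 1 with that variable from plain CPM (FKBP5) and 1 with the side as a block (FKBP5). The plain CPM version and the side block were chosen after seeing the data, and the TMM-scaled input replaced plain CPM after the result of the latter had been seen. The cause of these differences was not tested. Deviations of same-numbered pools correlated between -0.42 and -0.21 over genes, and 0 of 8 pools correlated best with its own number. Same-numbered pools all stand on opposite sides of the first component, so these correlations cannot decide whether another factor pairs them. With the replicate block the median log2 fold change of the 28 was 0.05 and ID2 was at 0.48. Without well-fed pool 1, the median of the 5 filament and enzyme genes was 0.03. Summed CPM, food-restricted over well fed, stayed between 0.975 and 1.03 without each pool.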
